A study of Homo sapiens with 14 samples.

Results

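The ubiquitin-specific proteases (USP enzymes) were examined as targets of repression in a pooled CRISPR interference screen for delta opioid receptor (DOR) signal. Members were all guides whose gene symbol was USP followed by a number and at most 1 letter, which gave 285 of the 91463 guides in the 6 compared sublibraries. They covered 57 gene starts of 52 genes, 51 genes in sublibrary H3 and 1, USP6, in H7, out of 18118 starts of 16686 genes. All 285 guides had at least 50 reads in one library of their sublibrary, so all 57 starts were tested, each with 5 guides.

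The screened cells were HEK293 FLP-In, an established line from human embryonic kidney that takes a transgene at a docking site. They carried DOR fused to the peroxidase APEX2 and the repressor dCas9-KRAB-BFP, in clonal populations picked for knockdown. Cells received 1 sublibrary of hCRISPRi-v2-top5 at a multiplicity near 0.2 and were selected for 3 days with 0.75 µg/ml puromycin. They were assayed 8 days after transduction. All cells were given 10 µM DADLE, an opioid peptide agonist, for 90 minutes and then exposed to Amplex UltraRed (100 µM), which APEX2 makes fluorescent, with hydrogen peroxide (50 µM) for 1 minute. The groups were the top (brightest) quartile and the bottom (dimmest) quartile of each sublibrary, with 1 library each. No unstimulated cells and no repeated sort were among the samples, so no difference below has a replicate check, and a change in receptor loss after agonist cannot be told apart from another change in APEX2 signal.

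Ubiquitin marks membrane receptors for sorting into multivesicular bodies and marks soluble proteins for the proteasome. USP enzymes are cysteine proteases that cut ubiquitin from such substrates and so can spare a protein from degradation or return ubiquitin to the pool. At endosomes USP8 is known for acting on internalised receptors and on the ESCRT-0 proteins that hold them, and USP20 and USP33 are known for the recycling of the beta2-adrenergic receptor. Other members work at the proteasome, on chromatin, in the nucleolus or in the spliceosome.

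The DNA around the starts of the 4 genes with the highest family values is shown, since CRISPR interference guides act at gene starts. The sequences are from RefSeq, build GRCh38.p14, and run from 250 bases before to 50 bases after the start. Capitals mark GGGCGG, the GC box, and CCAAT, each on either strand. For USP39, RefSeq gave 3 starts, and the most upstream and the most downstream are shown because the guides for this gene were designed at a pair of starts, named P1 and P2 in the guide names. The called start, P1, has the higher positions of the pair and so is the downstream one on the plus strand. No source used here names the build of the guide positions, so guides were not placed on these windows.
USP39, downstream RefSeq start (chr2:85615936-85616235, plus strand): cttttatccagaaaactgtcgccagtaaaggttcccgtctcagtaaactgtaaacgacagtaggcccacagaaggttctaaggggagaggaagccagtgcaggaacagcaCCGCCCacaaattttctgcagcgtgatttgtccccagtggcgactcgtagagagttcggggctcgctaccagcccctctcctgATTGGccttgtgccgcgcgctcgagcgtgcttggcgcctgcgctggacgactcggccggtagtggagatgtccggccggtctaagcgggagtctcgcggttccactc
USP39, upstream RefSeq start (chr2:85602611-85602910, plus strand): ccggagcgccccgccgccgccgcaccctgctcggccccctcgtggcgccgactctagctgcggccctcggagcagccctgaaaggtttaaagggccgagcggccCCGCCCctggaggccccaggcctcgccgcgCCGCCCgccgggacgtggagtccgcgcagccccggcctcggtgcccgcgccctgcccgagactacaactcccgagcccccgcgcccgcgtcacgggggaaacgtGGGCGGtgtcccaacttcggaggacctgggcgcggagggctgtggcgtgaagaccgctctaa
USP5 (chr12:6851900-6852199, plus strand): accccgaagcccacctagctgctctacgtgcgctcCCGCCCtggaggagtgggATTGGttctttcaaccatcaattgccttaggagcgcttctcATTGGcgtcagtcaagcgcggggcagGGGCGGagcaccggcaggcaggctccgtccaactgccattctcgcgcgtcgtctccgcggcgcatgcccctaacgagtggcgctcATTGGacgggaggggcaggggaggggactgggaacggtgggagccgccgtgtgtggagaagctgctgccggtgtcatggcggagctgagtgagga
USP4 (chr3:49340004-49340303, minus strand): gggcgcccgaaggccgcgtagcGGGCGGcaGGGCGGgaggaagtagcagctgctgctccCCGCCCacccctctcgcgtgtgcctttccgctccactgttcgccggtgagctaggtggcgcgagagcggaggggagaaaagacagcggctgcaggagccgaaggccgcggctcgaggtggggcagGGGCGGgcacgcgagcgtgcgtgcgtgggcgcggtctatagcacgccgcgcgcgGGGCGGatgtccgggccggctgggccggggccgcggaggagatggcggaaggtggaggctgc
USP8 (chr15:50424155-50424454, plus strand): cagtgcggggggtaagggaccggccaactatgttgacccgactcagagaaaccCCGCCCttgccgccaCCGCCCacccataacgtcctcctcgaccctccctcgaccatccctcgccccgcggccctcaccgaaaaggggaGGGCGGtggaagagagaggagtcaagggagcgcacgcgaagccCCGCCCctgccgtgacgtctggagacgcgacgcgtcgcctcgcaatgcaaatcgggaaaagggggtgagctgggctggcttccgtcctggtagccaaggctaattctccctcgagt
GGGCGG was found in 71.7% of 53 RefSeq start windows of 39 matched USP genes and in 45.0% of all 35116 windows. CCAAT was found in 24.5% of USP windows and 34.6% of all. USP windows held a median of 29 CG dinucleotides, against 14 over all windows, in which non-coding genes are included. The USP5 window held 3 CCAAT matches and the downstream USP39 window 1, and the upstream USP39, USP4 and USP8 windows held 0.

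The values of the USP genes were centred near 0, and 2 of 57 starts differed from non-targeting guides by the test used. The libraries hold guide reads and no RNA, so how far each gene was repressed is not known from them. For each start the log2(top/bottom) of its 5 guides was averaged after the median non-targeting guide of the sublibrary was set to 0, and a positive value means a larger share of reads in the top library. The median over the 57 starts was 0.02 on this log2 scale, against 0.01 over all 18116 starts tested. Of the USP starts 31 lay above 0 and 26 below. The means ran from -0.54 to 0.61, and those of the 56 starts in H3 from -0.25 to 0.61.

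USP39 and USP5, each at the start named P1, were enriched in bright cells. A start was called where a two-sided permutation test of its mean against non-targeting guides gave a Benjamini-Hochberg adjusted p, over all starts, under 0.05. The 2 calls make 3.51% of the 57 USP starts, against 3.84% of all starts (2.36% bright). In H3, where 56 of the 57 lie, the share was 3.57% of USP starts, against 7.43% of all H3 starts (4.18% bright). No USP start was called toward the dim side (0 of 57), where 1.48% of all starts and 3.25% of H3 starts were. At an unadjusted permutation p under 0.05 there were 10 USP starts, 6 on the bright and 4 on the dim side. They are 17.5% of the 57 starts, beside 12.3% of all starts and 17.2% of all H3 starts. The 10 include USP6, which lies in H7 and not in H3. By size alone, 3 starts had a mean of at least 0.3 with 80% or more of the guides on its side, all bright. On the dim side the count was 0, where 2.61% of all starts and 3.4% of H3 starts met this rule. The 3 starts are 5.26% of the USP starts, beside 3.85% of all starts and 4.27% of H3 starts. By the test the USP share in H3 was 3.57% in either direction, against 7.43% of all H3 starts. On the bright side it was 3.57%, near the 4.18% of all H3 starts. By size the bright share over all 57 USP starts was 5.26%, near the 4.27% of H3 starts. These shares rest on 2 and 3 USP starts, so they are not read as a trait of the family. On the dim side 0 USP starts met the size rule, against 3.4% of H3 starts. None of these differences was tested.

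The H3 libraries held 31762301 reads in the top and 27478717 in the bottom quartile, and the USP guides had median counts of 1913 in top and 1625 in bottom libraries. Counts per guide ran from 110 to 3856 in top and from 145 to 4164 in bottom libraries, with both lowest counts from the same USP6 guide. Non-targeting guides of H3 had an SD of 0.215 on the log2 ratio, beside 0.057 expected from counting, so counting error is a small part of the spread. Of the 280 USP guides in H3, 13 (4.64%) lay above and 9 (3.21%) below the central 95% of non-targeting guides, against 6.75% and 4.77% of all targeting guides there.

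USP39 is a spliceosome protein of the tri-snRNP that has the USP fold but lacks protease activity. At P1, on chromosome 2, the 5 guides had 34.7, 20.1, 44.0, 24.8 and 52.5 CPM (reads scaled to 1000000 per library) in the top library, against 32.6, 7.42, 34.9, 16.2 and 36.6 in the bottom library. Each guide was thus more frequent in bright cells, by log2 ratios of 0.10, 1.45, 0.35, 0.63 and 0.54. The mean was 0.61 ± 0.51 (SD, n = 5 guides), a 1.53-fold difference, with a permutation adjusted p of 0.00121. The guide with 1.45 also had the fewest reads of the 5, 640 in top and 204 in bottom. Without it the mean was 0.40. With edgeR's quasi-likelihood test the call ended (adjusted p 0.234).

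The other USP39 start, P2, did not follow P1. Its guides had 28.9, 16.1, 55.4, 9.32 and 80.5 CPM in top, against 27.4, 20.4, 47.8, 10.6 and 79.3 in bottom. Their ratios ran from -0.32 to 0.23, with a mean of -0.03 ± 0.22 (SD, n = 5 guides). In the guide names P1 carries positions 85843305 to 85843486 and P2 85829973 to 85830061, with medians 13325 bases apart. The downstream and the upstream RefSeq start shown above are also 13325 bases apart, in the same order. On average both sets were scarce in the sorted cells: the log2 of summed reads relative to non-targeting guides averaged -1.02 at P1 and -0.98 at P2. These are percentiles 1.05 and 1.26 of all H3 starts, and the lowest of the family. Single guides ran from -2.01 to -0.34 at P1 and from -2.53 to 0.48 at P2. No plasmid or earlier library was among the samples, so loss during growth and a low share in the library cannot be told apart. The difference between the starts was not tested.

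USP5 takes apart free ubiquitin chains and thereby returns ubiquitin to the pool. At P1, on chromosome 12, the guides had 67.2, 86.1, 51.2, 57.6 and 55.1 CPM in the top library, against 55.4, 71.9, 40.0, 30.1 and 50.0 in the bottom library. All 5 guides were higher in bright cells, by 0.29, 0.27, 0.37, 0.95 and 0.15 on the log2 scale. The mean was 0.41 ± 0.31 (SD, n = 5 guides), a 1.33-fold difference, with a permutation adjusted p of 0.00818. Without the guide at 0.95 the mean was 0.27. The call ended when the median replaced the mean (permutation adjusted p 0.149) and with edgeR's quasi-likelihood test (adjusted p 0.142).

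Guides for a neighbouring gene lay close to those of USP5. CDCA3, a cell cycle gene in H2, had 0.70 ± 0.21 (SD, n = 5 guides; permutation adjusted p 6.91e-04), with each guide between 0.50 and 1.03. The nearest CDCA3 guide was 84 bases from the nearest USP5 guide by the positions in the names. The 5 USP5 guides lay 84, 87, 189, 210 and 425 bases from a CDCA3 guide and had ratios of 0.29, 0.27, 0.37, 0.95 and 0.15. Repression of USP5 and of CDCA3 cannot be told apart with these guides. The P2 start of USP5, 4284 bases beyond P1, had 0.04 ± 0.13 (SD, n = 5 guides), with guides from -0.14 to 0.17.

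USP14 and USP13 complete the members that act at the proteasome or on ubiquitin chains. USP14 is held on the proteasome and trims chains from its substrates. Its guides had 44.8, 30.5, 78.0, 63.5 and 53.6 CPM in top, against 55.0, 59.9, 86.2, 64.7 and 49.6 in bottom. The mean was -0.25 ± 0.42 (SD, n = 5 guides; permutation adjusted p 0.195), and 1 guide at -0.96 set much of it, since the mean without that guide was -0.08. USP13, a relative of USP5, had 0.04 ± 0.13.

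USP8 and the other endosomal members did not pass the test. The 5 USP8 guides, on chromosome 15, had 100.9, 72.0, 61.0, 60.0 and 37.3 CPM in the top library, against 73.9, 41.1, 58.9, 61.8 and 33.6 in the bottom library. A pair of guides at 0.46 and 0.82 stood above the other 3, which had 0.06, -0.03 and 0.17. The mean was 0.30 ± 0.35 (SD, n = 5 guides; permutation adjusted p 0.0809), the fourth highest of the family. It passed when p-values were adjusted within H3 alone (permutation adjusted p 0.0452) and under none of the other 13 alternatives. USP20 and USP33 parted in sign, at 0.20 ± 0.30 and -0.05 ± 0.26. USP32, known for acting on RAB7, had 0.13 ± 0.18, USP10 0.09 ± 0.18, USP9X 0.01 ± 0.20 and USP2 0.13 ± 0.08 at P1 and 0.06 ± 0.12 at P2 (SD, n = 5 guides each). On the dim side of this group, beside USP33, lay USP6 at -0.54 ± 1.11, USP12 at -0.16 ± 0.17 and USP46 at -0.05 ± 0.27. Over the 11 starts of the 10 endosomal and receptor-sorting members the median was 0.06, 7 lay above and 4 below 0, and 0 were called. With 3.84% of all starts and 7.43% of H3 starts called, 0 of 11 is no result about this group.

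USP6 had the lowest mean of the family, and 1 guide set it. USP6 is a hominoid gene that joins a TBC domain to a USP domain. In H7 its guides had 128, 92.1, 81.5, 3.67 and 25.5 CPM in top, against 112, 87.3, 84.4, 4.98 and 143 in bottom. The last of these, with 766 reads in top and 4164 in bottom, had a log2 ratio of -2.48. The other 4 lay between -0.43 and 0.19. The mean was -0.54 ± 1.11 (SD, n = 5 guides; permutation adjusted p 0.127), and -0.05 without that guide.

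USP4, a signalling deubiquitinase that also binds an adenosine receptor, lay just outside the threshold. Its guides, on chromosome 3, had 96.4, 41.7, 50.6, 66.7 and 30.0 CPM in top, against 86.4, 39.0, 42.9, 47.5 and 20.9 in bottom. All 5 were higher in bright cells, at 0.17, 0.11, 0.25, 0.50 and 0.53. The mean was 0.31 ± 0.19 (SD, n = 5 guides; permutation adjusted p 0.0505). It passed under 4 of 14 alternatives, and the adjusted p over these 14 ran from 0.0261 to 0.230. Its paralog USP15, which acts in TGF-beta signalling, had 0.16 ± 0.20 with 4 of 5 guides above 0. Of the other signalling members USP47, known from base excision repair and WNT signalling, was farthest out, at -0.19 ± 0.25. Over the 8 starts of this group the median was 0.02, with 0 called. With 7.43% of all H3 starts called, 0 of 8 is no result about the group.

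Among the 16 members that act in the nucleus, on chromatin or in DNA repair, 0 of 17 starts were called, and the median was -0.01. The share called over all H3 starts was 7.43%, so 0 calls in a group this small is no result about it. In 4 of the 17 starts all guides lay on one side of 0. USP1, which removes ubiquitin from PCNA and FANCD2, had -0.16 ± 0.10, with guides from -0.27 to -0.06. USP48 had -0.13 ± 0.07, with guides from -0.22 to -0.02. USP49 and the P2 start of USP44, both histone H2B deubiquitinases, had 0.14 ± 0.08 and 0.20 ± 0.17 (SD, n = 5 guides each). Permutation adjusted p-values were 0.519, 0.672, 0.615 and 0.362 for USP1, USP48, USP49 and USP44, so these did not pass. All guides lay on one side for 8 of 57 USP starts, or 14.0%, against 12.1% of H3 starts. USP3, a histone H2A deubiquitinase, was among the 4 lowest starts of the family. Its guides had 36.0, 62.8, 50.5, 51.6 and 74.9 CPM in top, against 48.0, 72.5, 67.1, 54.1 and 71.2 in bottom. The mean was -0.19 ± 0.21 (SD, n = 5 guides; permutation adjusted p 0.397), and 1 of 5 guides was higher in bright cells. USP22, the protease of the SAGA complex, had 0.11 ± 0.13, and USP7, known for stabilising MDM2, had -0.01 ± 0.26. Of the other nuclear members USP21 was farthest from 0, at -0.19 ± 0.26 (SD, n = 5 guides; permutation adjusted p 0.407). The rest lay between -0.12 for USP11 and 0.12 for USP51.

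USP36, a nucleolar enzyme that supports ribosome production, had the third lowest mean of the family. Its guides had 66.1, 63.7, 70.4, 62.3 and 35.0 CPM in top, against 63.9, 68.4, 81.2, 67.0 and 64.6 in bottom. The last guide had -0.87 and the others lay between -0.19 and 0.06. The mean was -0.24 ± 0.37 (SD, n = 5 guides; permutation adjusted p 0.238), and -0.08 without that guide. USP14 and USP6 had a like pattern of 1 far guide.

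Members of the remaining groups lay near 0. USP19 at the ER and USP30 at the mitochondrial outer membrane both had -0.01, with SDs of 0.20 and 0.32 over guides. USP18, which removes ISG15, had -0.01 and its near copy USP41 had -0.04, with SDs of 0.10 and 0.41. USP9Y on chromosome Y and the testis genes USP26 and USP29 had -0.12, 0.10 and 0.09. The 6 genes placed in no group, USP24, USP40, USP43, USP50, USP53 and USP54, lay between -0.07 and 0.11 over 7 starts.

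Of 10 compared partners of USP enzymes and of UCHL5, 2 were called bright and 2 dim, beside 2.36% and 1.48% of all starts and 4.18% and 3.25% of H3 starts. The enzymes they bind were not called. WDR48, the activating partner of USP1, USP12 and USP46, was depleted from bright cells at -0.52 ± 0.42 (SD, n = 5 guides; permutation adjusted p 6.91e-04), with 4 of 5 guides below 0. USP1, USP12 and USP46 had -0.16 ± 0.10, -0.16 ± 0.17 and -0.05 ± 0.27 and did not pass. G3BP1, a stress granule protein that binds USP10, was enriched in bright cells at 0.52 ± 0.19, all 5 guides above 0 (SD, n = 5 guides; permutation adjusted p 6.91e-04), beside 0.09 ± 0.18 for USP10. The differences between partners and enzymes were not tested. Around USP8, the ESCRT-0 subunit HGS had 1.15 ± 1.39 with 3 of 5 guides above 0 (SD, n = 5 guides; permutation adjusted p 0.00205). STAM, STAM2 and PTPN23 had 0.15 ± 0.07, -0.07 ± 0.09 and 0.29 ± 0.84 (SD, n = 5 guides each) and did not pass. All 5 STAM guides lay above 0. For PTPN23 only 1 of 5 guides did, at 1.78, and its median guide had -0.05. ADRM1, the proteasome dock of UCHL5, was depleted from bright cells at -0.41 ± 0.45, all 5 guides below 0 (SD, n = 5 guides; permutation adjusted p 0.0132). The median over the partners was 0.10, beside 0.01 over all starts. These partners were chosen with earlier results of these data known.

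Among the other lists, calls were found for genes of the JAMM domain family, which are mostly subunits of larger machines and not all active proteases. Of 12 compared JAMM genes, 10 of them in H3, 4 were called bright and 0 dim, with a median of 0.16. This stands beside 2.36% and 1.48% of all starts, and 4.18% and 3.25% of H3 starts. PSMD7, a proteasome lid subunit, had 1.15 ± 0.25 and COPS6 of the COP9 signalosome 0.51 ± 0.45, with permutation adjusted p-values of 6.91e-04 and 0.00121 (SD, n = 5 guides each). The spliceosome core PRPF8 had 0.41 ± 0.38, all 5 guides above 0 (permutation adjusted p 0.00848). PSMD14, the proteasome's own deubiquitinase, had 0.53 ± 1.05 with 2 of 5 guides above 0 (SD, n = 5 guides; permutation adjusted p 0.0195). STAMBP, which acts on receptors at endosomes beside USP8, had -0.07. Of 14 OTU, 4 UCH and 4 Josephin genes 0 were called, with medians of 0.03, -0.08 and -0.04. In either direction 3.84% of all starts and 7.43% of H3 starts were called, so 0 calls is no result about groups this small. The farthest were OTUD3 at -0.43, UCHL5 at -0.18 and ATXN3 at -0.16. Among 3 genes with the USP fold and other names, PAN2 of the poly(A) deadenylase was called at 0.57 ± 0.23 (SD, n = 5 guides; permutation adjusted p 0.00121), and CYLD and USPL1 had 0.17 and 0.11. Over all 47 genes compared in these lists and among the partners, 35 of them in H3, 7 were called bright and 2 dim, or 14.9% and 4.26%. The shares were 2.36% and 1.48% of all starts and 4.18% and 3.25% of H3 starts. The lists were chosen with earlier results of these data known, so their shares are no test of these families.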

How the data were processed

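Per the labels, guides were amplified from genomic DNA of sorted quartiles in 27 PCR cycles and sequenced. The authors deposited whole-number read counts per guide, not normalized. Bowtie is the tool in the submitters' processing notes (version unstated), and no build of the guide positions is stated there. The H4 sublibrary was not analysed here. Guides missing from one library of a pair were counted as 0.

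Counts plus a pseudocount of 1 were divided by library totals (18054418 to 34636612 reads), and the log2 ratio of top over bottom was set to 0 at the median non-targeting guide. Guides needed 50 counts in either library and starts 3 guides. Each start was tested with 100000 permutation draws (two-sided, smallest p 1e-05) and Benjamini-Hochberg adjustment over 18116 starts. The p-values compare 2 libraries from a single sort, and guides of a gene share its cells' source. With 1 library per group, edgeR 4.0.16 was run only as an alternative, with guides as blocks. DESeq2 1.42.0 gave size factors. The tests were run on simulated data in which all guides of a changed target shared the same log2 shift. At a shift of 0.5 the permutation test recovered 71 of 100 targets and edgeR 73 of 94. At a shift of 1 these were 100 of 100 and 93 of 93. Shifts between 0 and 0.5, where the means of USP5, USP4 and USP8 lie, were not simulated. The protocol names no molecular identifiers, so counting error is a lower bound on the technical error. Neighbours were sought within 1000 bases, with chromosomes matched by symbol to a GRCh38.p14 gene table for 16593 of 16686 genes. Fully described were USP8, called starts, the 4 highest and 4 lowest, and starts with all guides on one side. In the other lists, called genes were named, otherwise the farthest; STAM, STAM2, PTPN23, STAMBP, CYLD, USPL1 and further members were given after their values were seen. Members and lists were chosen with earlier results of these data known. Python 3.11.15, numpy 2.4.6 and pandas 2.3.3 were used.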

Additional observations from a re-analysis of the deposited data

How the results depend on the processing

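Of the 57 USP starts 2 were called, and the count was also 2 under 8 of the 14 alternatives that give one, 3 with a pseudocount of 10, with at least 200 counts in both libraries and by rank sum, 4 when adjusted within sublibraries, 1 by the median over guides and 0 with edgeR's quasi-likelihood test, by which 5 starts had an unadjusted p under 0.05. USP39 passed in 13 and USP5 in 12 of the 14, with values from 0.40 to 0.87 and from 0.27 to 0.54. The added starts were USP4, and USP8 within sublibraries. Over all genes 696 starts were called, and 254 with edgeR. At an absolute mean of at least 0.5 instead of 0.3, 1 start passed the size rule in place of 3. The values of all 13 described starts kept their sign under all 14 alternatives, but not all of these could change it. The rank sum test, adjustment within sublibraries and other random draws use the same values as the main test. Removing shared guides, dropping the count filter and requiring at least 200 counts in both libraries also left the values of the described H3 starts unchanged. Other random draws were an alternative chosen after seeing the data. No analysis over repeated sorts was possible because each group had 1 library and the labels give no replicate numbers. Among H3 starts with 5 guides the smallest absolute mean that was called was 0.31, so smaller shifts did not reach the threshold at this guide number.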

Other observations

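USP37, a deubiquitinase of cell cycle regulators, had 0.03 ± 0.35 (SD, n = 5 guides), and its guides lay 515 bases from those of RQCD1, a subunit of the CCR4-NOT deadenylase in H5. RQCD1 guides had 1.72 ± 1.48 (SD, n = 5 guides; permutation adjusted p 6.91e-04). Guides of 7 of the 52 USP genes lay within 1000 bases of guides for another gene. The neighbours of USP15, USP20, USP32, USP35 and the P2 start of USP39 (FAM19A2, C9orf78, C17orf64, KCTD21 and TMEM150A) had -0.03, 0.11, 0.01, 0.26 and -0.02 and were not called.

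Abundance in the sorted cells differed among members apart from the bright to dim ratio. After both USP39 starts, the lowest means over guides were those of USP33, USP41 and USP21. They were -0.64, -0.63 and -0.57 on the log2 scale relative to non-targeting guides, and the highest in H3 was USP47 at 0.33. In USP41 1 guide had -3.14, and the others lay between -0.51 and 0.38. In USP21 1 guide had -2.34, and the others lay between -0.37 and 0.06. Over the 56 USP starts of H3 the correlation of ratio and abundance was r = -0.23 and Spearman rho = -0.06, given as a description of points that share 2 libraries. Over all 3323 H3 starts r was -0.07 and rho -0.02. The P1 start of USP39 had both the highest ratio and the lowest abundance of the USP starts.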
